A study of Mus musculus with 41 samples.

Results

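The genes described are 10 that encode chemokines, a cytokine and a cytokine receptor, namely Cxcl1, Cxcl5, Cxcl9, Cxcl10, Cxcl12, Ccl2, Ccl5, Ccl7, Il6 and Il1rl1, in mouse embryonic fibroblasts (MEFs), embryos and cerebella. They were selected by symbol from 22438 genes with footprint counts and 55385 genes with RNA estimates, and all 10 were present in both. Because the symbols were chosen with results of these libraries known, their levels and changes in MEFs are given as a description, and a call there only says that a change passed the threshold used for all genes. The study profiled ribosome-protected mRNA fragments (footprints, 30 libraries) and mRNA (11 libraries) after loss of Hbs1l or Pelo, a pair of proteins that rescue stalled ribosomes, or of Upf2, a nonsense-mediated decay factor.

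Whole embryos were C57BL/6NJ, at embryonic day 8.5, either Hbs1l-/- or wild type, with 3 footprint libraries each and several embryos pooled in a library. Cerebella were C57BL/6J, at postnatal day 14, 1 cerebellum a library, with 3 libraries of Atoh-Cre;Hbs1l cKO and 3 of Atoh-Cre;Hbs1l +/+. By the study's genotype list the cKO is Hbs1l fl/- with the B6J allele of the tRNA gene n-Tr20. Cre is driven in granule cell precursors, so other cerebellar cells of the cKO keep a single copy of Hbs1l, whereas controls are +/+. MEFs were primary cells, each replicate from 1 embryo, of C57BL/6 background and with the same n-Tr20 allele. All MEFs, controls included, carried the tamoxifen-inducible CAG-Cre ER transgene and were given tamoxifen, and dishes were pooled for a footprint library. The other genotypes were Hbs1l fl/-, Pelo fl/fl or Upf2 fl/fl (Hbs1l-/-, Pelo-/- and Upf2-/- below), each with 3 footprint libraries and 3 control libraries in the same sequencing pool. MEF RNA came from other dishes and a batch of its own, with 3 control, 3 Hbs1l-/-, 2 Pelo-/- and 3 Upf2-/- libraries, the submitters having left out 1 more Pelo-/- sample as an outlier.

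Library totals ran from 2634480 to 7298812 footprint counts in embryos, from 10919139 to 22591768 in cerebella, from 5782990 to 25607974 in MEFs, and from 22713643 to 86425762 estimated RNA counts. The targeted gene was low in Hbs1l-/- MEFs (1.51 to 2.58 footprint CPM, counts scaled to the library total, against 32.5 to 38.0), in Pelo-/- MEFs (2.03 to 2.93 against 31.7 to 37.1), in Hbs1l-/- embryos (2.53 to 8.84 against 48.7 to 57.7) and in cKO cerebella (13.2 to 15.8 against 35.5 to 43.8). Whole-gene Upf2 counts went against the label, at 114 to 118 footprint CPM in libraries labelled Upf2-/- against 47.0 to 57.8 in their controls, so those cells are called "labelled Upf2-/-" throughout. Removing part of a gene need not lower counts over the whole gene, so this comparison does not decide whether the label is right. The study reports that build-up of nonsense-mediated decay and retained-intron transcripts was particular to its Upf2-/- MEFs, which runs the way of the label. Control libraries of the same number in different pools differed by 1.10 to 1.20 times the variance that counting alone gives, against 4.31 to 13.6 times for control libraries of different numbers. The 3 MEF footprint comparisons therefore appear to share control cultures, which the labels do not state, and the 3 RNA comparisons share 1 set of controls. All 10 fibroblast markers were present, at a summed 43310 to 51874 footprint CPM, and of these 8 were called higher and 1 lower in Hbs1l-/-, 7 and 1 in Pelo-/- and 7 and 2 in labelled Upf2-/- footprints, beside 17.4% and 16.7%, 22.9% and 21.2%, and 22.3% and 21.1% of all genes. Their RNA sum was 20146 to 20500 CPM in Pelo-/- against 11086 to 15057 in control MEFs, 13129 to 17863 in Hbs1l-/- and 11301 to 12330 in labelled Upf2-/- MEFs. Macrophage markers were present as well and moved with genotype. Over 12 macrophage and monocyte genes the summed level was 505 to 721 footprint CPM in Pelo-/- MEFs against 130 to 182 in controls, with 12 of 12 above every control, and 251 to 339 against 132 to 182 in Hbs1l-/- MEFs, with 11 of 12 above. It was 185 to 231 against 127 to 176 in labelled Upf2-/- MEFs, with 5 of 12 above. In RNA the same sums were 128 to 191 CPM in Pelo-/-, 180 to 250 in Hbs1l-/-, 87.2 to 157 in labelled Upf2-/- and 89.8 to 136 in control MEFs. A set of 6 neutrophil markers summed to 3.80 to 15.4 footprint CPM in Pelo-/- MEFs and 0.267 to 0.629 in their controls, where S100a9, Elane and Mpo were at 0, and the 8 lymphocyte markers summed to at most 0.961 CPM in every MEF library. The sum of 8 endothelial markers, most of it Kdr and Emcn, was 27.5 to 35.6 footprint CPM in Pelo-/- MEFs against 78.3 to 84.5, 41.7 to 45.5 against 72.0 to 84.9 in Hbs1l-/- and 58.3 to 65.1 against 72.5 to 86.4 in labelled Upf2-/- MEFs, so in footprints it was lower in each genotype, as Cxcl12 was. In RNA that sum was 40.8 to 46.7 CPM in Pelo-/-, 24.3 to 27.0 in Hbs1l-/- and 27.7 to 35.1 in labelled Upf2-/- against 35.7 to 43.1 in control MEFs. Within the list 2 of 8 lay below every control in Pelo-/- footprints and 3 of 8 above, near the shares over all genes. In Hbs1l-/- footprints 2 of 8 lay below and 0 above, and in labelled Upf2-/- footprints 1 lay below and 2 above. The lower sums thus came from part of the list. The 6 mast cell markers summed to 1.62 to 4.14 CPM in Pelo-/- MEFs against 0.874 to 1.41, with 3 of 6 above every control. Over all genes tested, 29.3% lay above and 25.1% below every control in Pelo-/- footprints, 25.5% and 21% in Hbs1l-/- and 31% and 23% in labelled Upf2-/-. The part of these cells in the results below was not tested, and in bulk samples more cells of a type and more RNA per cell cannot be told apart.

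Chemokines are small secreted proteins that direct the migration of leukocytes through receptors on those cells. CXC chemokines with the ELR motif, such as Cxcl1 and Cxcl5, attract neutrophils through Cxcr2, whereas Cxcl9 and Cxcl10 are interferon-induced and attract T cells through Cxcr3. Cxcl12 differs from these in being made constitutively by stromal cells, where it retains progenitor cells through Cxcr4. Ccl2 and Ccl7 attract monocytes through Ccr2, and Ccl5 attracts T cells and monocytes. Il6 is a cytokine of inflammation and the acute phase, and Il1rl1 (ST2) is the receptor of Il33 and also has a secreted decoy form. Fibroblasts release many of these proteins when pattern-recognition, interleukin-1 or interferon receptors are engaged, and several of the mRNAs carry AU-rich elements that speed their decay.

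Most of the genes lie in chemokine clusters. On mouse chromosome 5 (GRCm38) Cxcl5 ends 129616 bases before Cxcl1 begins, and Cxcl9 and Cxcl10 are 18558 bases apart. On chromosome 11 Ccl2 and Ccl7 are 8258 bases apart, with Ccl5 a further 1478252 bases away. Cxcl12 is on chromosome 6, Il6 on chromosome 5 at 30013114 to 30019981, and Il1rl1 on chromosome 1. The coding sequences are short, from 276 bases with the stop codon for Ccl5 to 636 for Il6 and 1704 for full-length Il1rl1, against a median of 1215 bases over 20491 genes.

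Promoter sequences, the 250 bases before the annotated start in RefSeq (GRCm38.p6), were at hand for 6 of the 10 genes, with 7 starts. They are shown as a description of the genes, and whether they bear on any change below was not tested. Capitals mark matches on either strand to the NF-kB pattern GGNNNTTCC, the interferon-stimulated response element pattern GAAANNGAA, the STAT pattern TTCNNNGAA or the AP-1 pattern TGANTCA, and overlapping matches were counted separately. Cxcl1 and Cxcl9 follow first, from chr5:90890995-90891244 on the plus strand and chr5:92328080-92328329 on the minus strand, each read 5′ to 3′ toward its gene. Cxcl10, chr5:92348890-92349139 on the minus strand, and Cxcl12, chr6:117168285-117168534 on the plus strand, come after them.
Cxcl1: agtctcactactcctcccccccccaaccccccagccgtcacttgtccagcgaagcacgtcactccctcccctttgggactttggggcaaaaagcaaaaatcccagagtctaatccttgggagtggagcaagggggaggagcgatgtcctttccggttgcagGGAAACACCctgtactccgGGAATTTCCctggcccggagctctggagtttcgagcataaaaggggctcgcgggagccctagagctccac
Cxcl9: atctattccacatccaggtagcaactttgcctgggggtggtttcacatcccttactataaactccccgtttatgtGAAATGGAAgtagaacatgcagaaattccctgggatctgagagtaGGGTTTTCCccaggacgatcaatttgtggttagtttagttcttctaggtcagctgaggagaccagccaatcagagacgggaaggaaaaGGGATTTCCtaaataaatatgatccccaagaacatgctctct
Cxcl10: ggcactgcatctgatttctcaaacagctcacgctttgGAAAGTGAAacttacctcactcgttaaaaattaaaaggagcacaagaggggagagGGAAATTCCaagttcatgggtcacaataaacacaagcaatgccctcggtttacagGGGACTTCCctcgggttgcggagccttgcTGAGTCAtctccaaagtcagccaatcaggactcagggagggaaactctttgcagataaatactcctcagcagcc
Cxcl12: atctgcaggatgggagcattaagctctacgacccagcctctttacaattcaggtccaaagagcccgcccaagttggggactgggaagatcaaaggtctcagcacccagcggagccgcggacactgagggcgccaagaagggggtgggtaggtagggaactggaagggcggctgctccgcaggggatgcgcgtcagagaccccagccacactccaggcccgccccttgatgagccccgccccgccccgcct

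The Cxcl1 window held 2 NF-kB matches, GGAAACACC and GGAATTTCC, at 89 and 70 bases before the start. Cxcl9 had 2, at 130 and 42 bases, beside 1 interferon element match at 175 bases. In the Cxcl10 window there were 2 NF-kB matches at 158 and 103 bases, 1 interferon element match at 213 and 1 AP-1 match at 74. Il6 held 1 NF-kB match at 43 bases and 1 AP-1 match at 249. None of the 4 patterns was found in the Cxcl12 window or at either Il1rl1 start. Over 32851 promoter windows of the same length, 15.7% held the NF-kB pattern, 7.13% the interferon element, 7.02% the STAT pattern and 6.75% the AP-1 pattern. No promoter sequence is printed for Cxcl5, Ccl2, Ccl5 and Ccl7.

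In 3′ untranslated regions (Gencode M21, the transcript with the longest coding sequence), the pentamer ATTTA occurred in 9 of 10 genes against 61.7% of 20491 genes. Cxcl1 carried 7 in 592 bases, 2 of its sites reading TTATTTATT, a form found in 6.94% of genes, and Il6 carried 6 in 427 bases. Cxcl5 had 5 copies, Cxcl12 had 4, Cxcl9 and Il1rl1 had 3, Cxcl10 and Ccl7 had 2, Ccl2 had 1 and Ccl5 had none. By density Il6 was at 14.1 copies per kb and Cxcl1 at 11.8, against a median of 1.13 per kb over all genes, while Cxcl12 was at 0.771 and Il1rl1 at 0.924. The densest stretches of 30 bases are shown for the pair of genes with most copies, with ATTTA in capitals, Cxcl1 in exon 4 at chr5:90892602-90892631 and Il6 in exon 5 at chr5:30019677-30019706, both on the plus strand.
Cxcl1: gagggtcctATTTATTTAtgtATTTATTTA
Il6: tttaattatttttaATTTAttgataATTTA

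In control MEFs Cxcl12 had the most footprints for its length. Per kb of coding sequence its level was 571 to 579 CPM, as the means of the 3 control groups, followed by Ccl2 at 259 to 281 and Ccl7 at 255 to 262, whose ranges over libraries overlapped. Il1rl1 was next at 67.3 to 72.3, apart from its neighbours, and Cxcl10 at 11.4 to 14.7, overlapping Il6 in 2 of the 3 groups. Il6, Ccl5, Cxcl5 and Cxcl1 came to between 3.75 and 7.97 on that scale and overlapped in most groups. Cxcl9 had at most 2 counts in any control library. RNA of control MEFs gave the same leading order in TPM (transcript abundance scaled for length), with Cxcl12 at a mean of 146 (129 to 172 over 3 libraries), Ccl2 at 57.3, Ccl7 at 49.0 and Il1rl1 at 25.3. In Pelo-/- MEFs the footprint level per kb was 3739 CPM for Ccl2, 2076 for Ccl7, 1086 for Cxcl10, 899 for Cxcl5, 581 for Il1rl1 and 268 for Cxcl12. Il1rl1 is divided here by all 1733 coding bases of the gene. Over the 1011 coding bases of the transcript that holds most of its RNA, a length taken after the data were seen, it would be at 995 in Pelo-/- MEFs (842 to 1256 over libraries) and 115 to 124 in controls, so the order of Cxcl10, Cxcl5 and Il1rl1, whose ranges overlap, is not settled in Pelo-/- MEFs. The 10 genes together took 0.331 to 0.475% of footprints in Pelo-/- MEFs and 0.0468 to 0.0611% in their controls. Their sum was 1000.4 to 1142 CPM in Hbs1l-/- against 464 to 595 in its controls, and 726 to 1119 in labelled Upf2-/- MEFs against 449 to 594. Of RNA they took 0.0355 to 0.0378% in Pelo-/-, 0.0471 to 0.0541% in Hbs1l-/-, 0.0317 to 0.0425% in labelled Upf2-/- and 0.0344 to 0.0429% in control MEFs. The Pelo-/- libraries thus lay above their controls in footprints and within the control range in RNA.

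**Figure D1:**
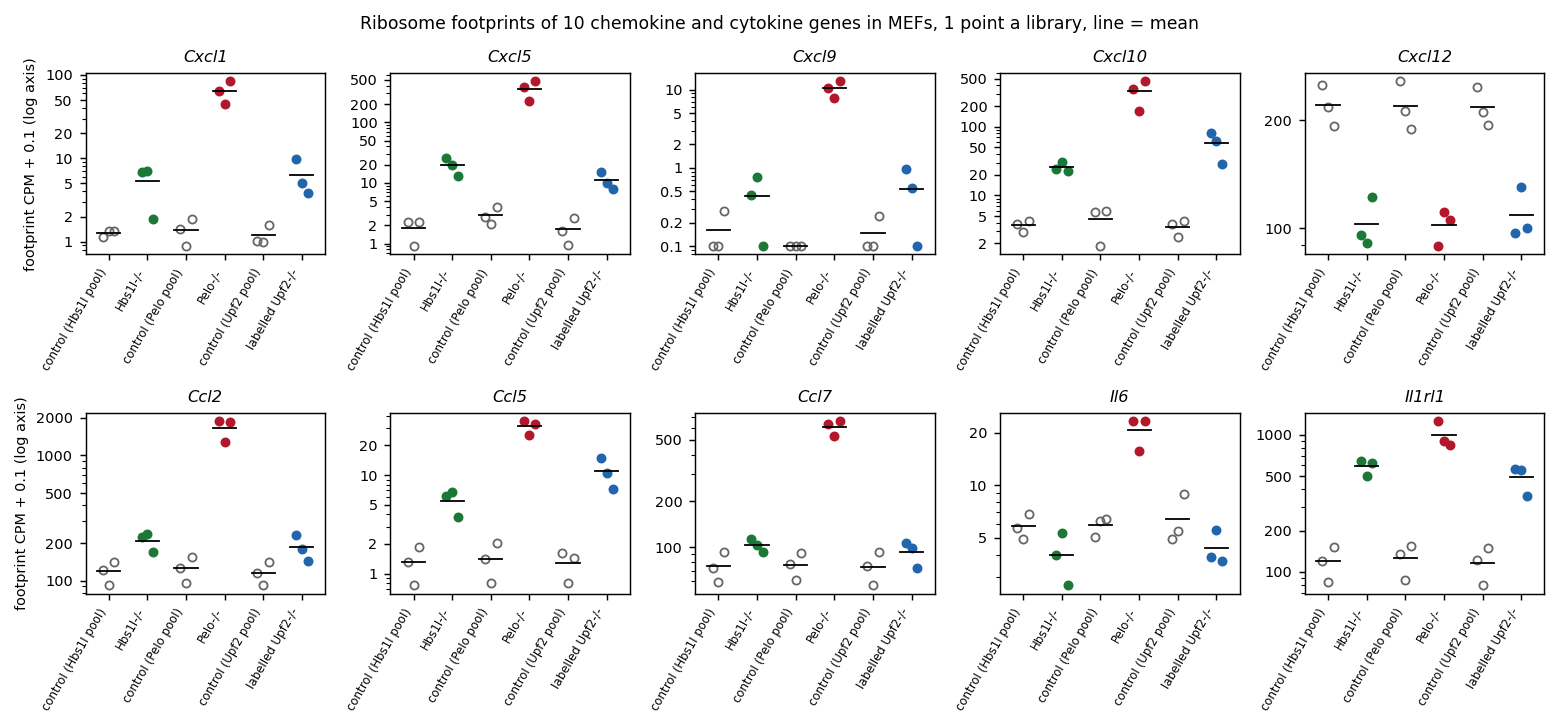
Footprint level of each gene in MEFs, as CPM + 0.1 on a log axis that differs between panels, with 1 point a library and a line at the group mean; open points are controls. Pelo-/- libraries stand above their controls for 9 genes, and for Cxcl12 all 3 genotypes stand below.

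Across MEF footprints, loss of Pelo gave the widest change. With edgeR's quasi-likelihood test at an adjusted p of at most 0.05 over all genes tested, 9 of 10 genes were called higher and 1 lower, beside 22.9% of all 12486 genes tested called higher and 21.2% lower. Groups of 3 libraries did not overlap for any of the 10 (9 above, 1 below, against 29.3% and 25.1% of all genes). Hbs1l-/- footprints were called higher for 7 of 9 genes tested and lower for 1, beside 17.4% and 16.7% of all genes, with 6 above and 1 below the controls without overlap (25.5% and 21% of all genes). Labelled Upf2-/- footprints were called higher for 6 of 9 and lower for 1, beside 22.3% and 21.1%, with 6 above and 1 below (31% and 23%). Cxcl9 was too low to be tested in the last pair of comparisons, and it entered the Pelo-/- one only through the Pelo-/- libraries, in which it is high, so that its call there is no independent sign of a difference. The median log2 fold change of the genes tested was 4.14 in Pelo-/-, or 3.72 over the 9 other than Cxcl9, 2.07 in Hbs1l-/- and 2.03 in labelled Upf2-/- footprints. The median over all genes tested was 0.0037, -0.0069 and 9.00e-04 in that order.

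In RNA each genotype was compared with the shared controls, and differences between genotypes were not fitted. Hbs1l-/- RNA was called higher for 7 of 9 genes and lower for 1, beside 12.7% and 10.4% of all genes, with a median log2 fold change of 1.76. Pelo-/- RNA was called higher for 1, Il1rl1, and lower for 3, Ccl2, Ccl7 and Il6, beside 15.5% and 16.6%, with a median of -0.18. Labelled Upf2-/- RNA was called higher for 2, Cxcl10 and Ccl5, and lower for none, beside 13.2% and 6.76%, with a median of 0.53. Groups did not overlap for 6 above and 2 below in Hbs1l-/-, 1 above and 4 below in Pelo-/- and 2 above in labelled Upf2-/- RNA, of 9 genes tested in each, beside 24.1% and 19.6%, 31.8% and 29.1%, and 25.2% of all genes. Overlap was read on the CPM scale. The median over all genes was -0.011, -0.0136 and -0.0219 in Hbs1l-/-, Pelo-/- and labelled Upf2-/- RNA.

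**Figure D2:**
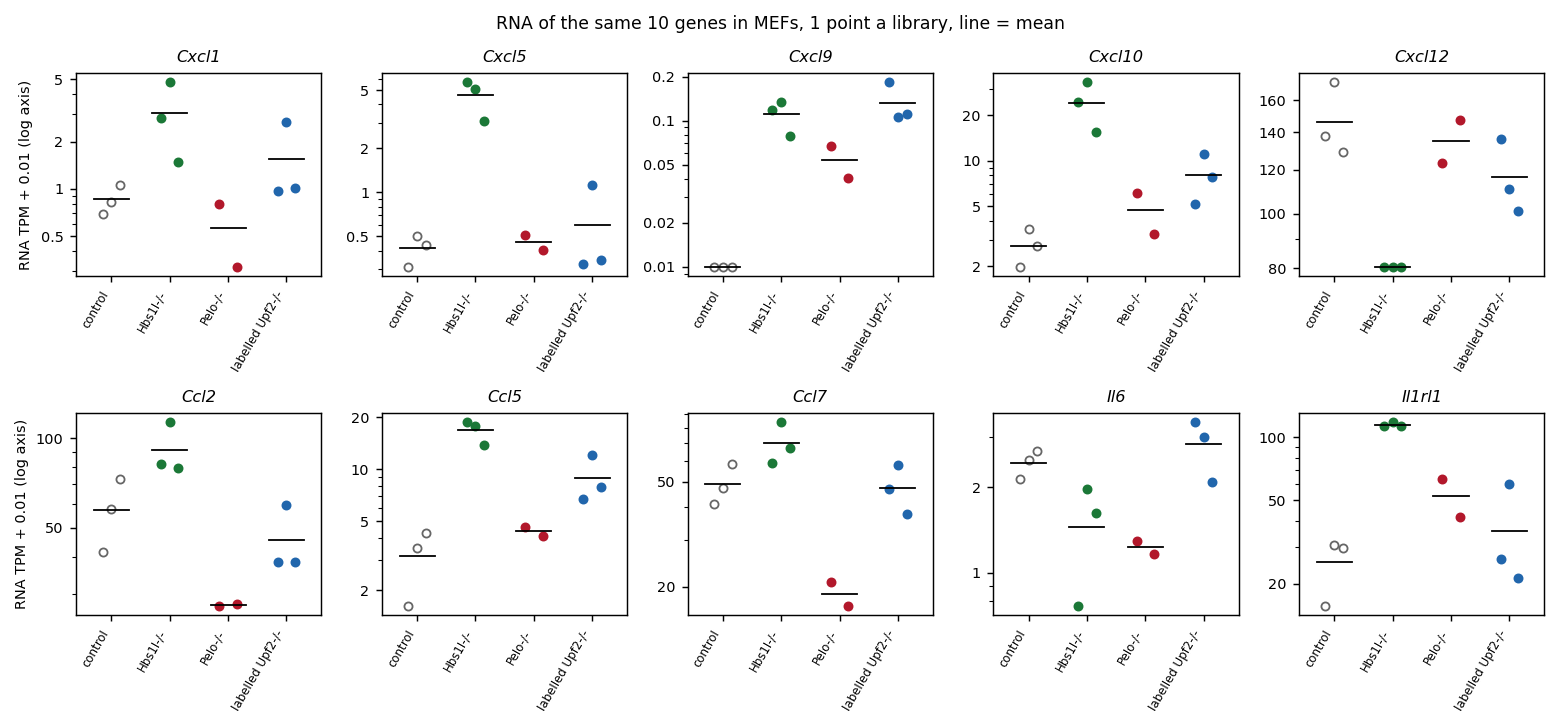
RNA level of each gene in MEFs, as TPM + 0.01 on a log axis that differs between panels, with 1 point a library and a line at the group mean; open points are controls. Hbs1l-/- libraries are the highest for Cxcl5, Cxcl10, Ccl2, Ccl5, Il1rl1 and, narrowly, Ccl7. The 2 Pelo-/- libraries are below all 3 controls for Ccl2, Ccl7 and Il6.

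Cxcl1, a neutrophil attractant, had footprint levels of 64.7, 44.6 and 83.5 CPM in the 3 Pelo-/- libraries against 1.31, 0.786 and 1.78 in their controls. The Hbs1l-/- libraries were at 6.83, 6.92 and 1.78 CPM against 1.03, 1.25 and 1.25. Those labelled Upf2-/- were at 9.68, 4.97 and 3.71 against 0.905, 0.897 and 1.47. Every library of the 3 genotypes was thus above its controls, with 1 Hbs1l-/- library close to them. Log2 fold changes of footprints were 5.63 (SE 0.29) in Pelo-/-, 2.07 (SE 0.44) in Hbs1l-/- and 2.38 (SE 0.37) in labelled Upf2-/- MEFs, all called higher. RNA stood at 0.677, 0.811 and 1.05 TPM in controls, 2.82, 4.75 and 1.46 in Hbs1l-/-, 0.796 and 0.308 in Pelo-/- and 0.953, 2.67 and 1.01 in labelled Upf2-/-. Only the Hbs1l-/- RNA of Cxcl1 was called, at 1.76 (SE 0.40). That call was lost without Hbs1l-/- replicate 2 (1.22) or control replicate 2 (1.71), and with limma on log2(TPM + 0.1) (1.59). The RNA log2 fold change was -0.82 (SE 0.41) in Pelo-/- and 0.81 (SE 0.39) in labelled Upf2-/- cells, neither called.

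Cxcl5, which shares the neutrophil receptor, reached 379, 226 and 471 footprint CPM in Pelo-/- MEFs against 2.62, 1.97 and 3.91 in controls. It was at 25.9, 19.6 and 13.1 in Hbs1l-/- against 2.15, 0.808 and 2.14, and at 14.9, 9.94 and 7.83 in labelled Upf2-/- against 1.53, 0.833 and 2.52. No library of the 3 genotypes overlapped its controls. The log2 fold changes were 6.97 (SE 0.32), 3.54 (SE 0.31) and 2.68 (SE 0.33) in that order, all called higher. Its RNA was at 0.300, 0.490 and 0.428 TPM in controls and at 5.64, 5.05 and 3.08 in Hbs1l-/- cells, a called log2 fold change of 3.49 (SE 0.28). Pelo-/- RNA was at 0.502 and 0.391 TPM and labelled Upf2-/- RNA at 0.314, 1.12 and 0.335, both overlapping the controls (log2 fold changes 0.02, SE 0.38, and 0.58, SE 0.47, not called).

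Cxcl9, a Cxcr3 ligand, had 10.5, 7.84 and 12.7 footprint CPM in Pelo-/- MEFs and no count in any of their 3 controls. Against a floor of 3 counts in each control library it was at least 40.6-fold higher. Other MEF groups were near 0, with 0.348, 0.675 and 0 CPM in Hbs1l-/- and 0.865, 0.452 and 0 in labelled Upf2-/- libraries. In RNA all 3 controls were listed at 0, and Hbs1l-/- libraries at 0.108, 0.125 and 0.0688 TPM, at least 2.27-fold above the same floor in CPM. Pelo-/- RNA, at 0.0567 and 0.0305 TPM, and labelled Upf2-/- RNA, at 0.172, 0.0953 and 0.101 TPM, did not on average exceed what 3 counts would give, so no fold is stated. In labelled Upf2-/- RNA 74.0% of the TPM on average was assigned to Cxcl9-202, a retained-intron transcript.

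Cxcl10, the other Cxcr3 ligand, was at 353, 172 and 457 footprint CPM in Pelo-/- MEFs against 5.68, 1.73 and 5.87 in controls. Hbs1l-/- libraries had 23.8, 30.6 and 22.4 CPM against 3.79, 2.87 and 4.18, and labelled Upf2-/- libraries 81.8, 62.2 and 29.0 against 3.76, 2.37 and 4.13. The 3 comparisons were free of overlap, with called log2 fold changes of 6.21 (SE 0.43), 2.79 (SE 0.17) and 4.02 (SE 0.34). Its RNA was at 1.97, 3.51 and 2.71 TPM in controls, 24.3, 32.9 and 15.5 in Hbs1l-/-, 6.10 and 3.27 in Pelo-/-, and 5.17, 11.1 and 7.75 in labelled Upf2-/- cells. That gave called RNA log2 fold changes of 3.11 (SE 0.27) in Hbs1l-/- and 1.57 (SE 0.27) in labelled Upf2-/- cells, and 0.33 (SE 0.23), not called, in Pelo-/- cells, of which 1 library overlapped the controls. In the Pelo-/- library at 6.10 TPM, 37.8% was assigned to Cxcl10-203, a retained-intron transcript. The main coding transcript, Cxcl10-201, was at 3.27 to 3.62 TPM in Pelo-/- cells.

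Cxcl12, the stromal chemokine, was lower in footprints of all 3 genotypes. Footprints were at 89.1, 111 and 105 CPM in Pelo-/-, 95.8, 91.2 and 122 in Hbs1l-/- and 96.8, 130.5 and 99.96 in labelled Upf2-/- MEFs. Their controls were at 256, 212 and 189, at 251, 217 and 193, and at 247, 211 and 194. All 9 libraries of these genotypes lay below their controls, and the log2 fold changes of -1.12 (SE 0.12), -1.12 (SE 0.11) and -1.03 (SE 0.12) were each called lower. The controls of the 3 pools appear to be the same cultures, so these are not 3 independent comparisons. In RNA, controls were at 138, 172 and 129 TPM, and Hbs1l-/- libraries were lower without overlap at 80.4, 80.4 and 80.4, a called log2 fold change of -0.83 (SE 0.12). Pelo-/- RNA was at 123 and 147 TPM and labelled Upf2-/- RNA at 136.5, 111 and 101, with log2 fold changes of -0.18 (SE 0.17) and -0.29 (SE 0.13), not called.

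Ccl2, the main monocyte attractant, was the most abundant of the 10 in Pelo-/- footprints, at 1893, 1277 and 1844 CPM against 126, 95.9 and 154.5 in controls. Hbs1l-/- libraries were at 222, 235.5 and 169 against 122, 92.6 and 140.5, and labelled Upf2-/- libraries at 231, 179.7 and 143 against 116, 91.8 and 140.0. The called log2 fold changes were 3.72 (SE 0.19), 0.79 (SE 0.13) and 0.62 (SE 0.16), without overlap in any, although the lowest labelled Upf2-/- library was close to the highest control. RNA was at 41.5, 57.8 and 72.8 TPM in controls, 81.7, 114 and 79.6 in Hbs1l-/-, 27.3 and 27.8 in Pelo-/-, and 38.2, 59.8 and 38.4 in labelled Upf2-/- cells. In Pelo-/- cells Ccl2 RNA was therefore lower in both libraries than in any control, while its footprints were higher. That RNA log2 fold change of -1.21 (SE 0.19) was called by edgeR on counts and not by limma on log2(TPM + 0.1) (-1.02). The Hbs1l-/- RNA change of 0.66 (SE 0.18) was called, but not without Hbs1l-/- replicate 2 (0.47) or without control replicate 1 (0.53) or 2 (0.62). With limma on log2(TPM + 0.1) it was not called either (0.69). The RNA change of labelled Upf2-/- cells, -0.32 (SE 0.19), was not called.

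Ccl7, a neighbour of Ccl2 and a ligand of the same receptor, had 637, 528.5 and 666 footprint CPM in Pelo-/- MEFs against 77.7, 61.6 and 91.4 in controls. It had 114, 103 and 92.6 in Hbs1l-/- against 73.2, 59.1 and 93.6, and 106, 98.2 and 73.6 in labelled Upf2-/- against 75.0, 56.5 and 93.0. Pelo-/- libraries were clear of their controls, at a called log2 fold change of 2.97 (SE 0.13), and the other groups overlapped. The Hbs1l-/- change of 0.44 (SE 0.13) was called but lost without Hbs1l-/- replicate 1 (0.35) or control replicates 1 (0.41) or 2 (0.30), and the labelled Upf2-/- change of 0.26 (SE 0.16) was called only without control replicate 3 (0.43). RNA was at 41.3, 47.4 and 58.4 TPM in controls, 58.6, 84.3 and 67.3 in Hbs1l-/-, 20.8 and 16.9 in Pelo-/-, and 46.8, 57.6 and 37.8 in labelled Upf2-/- cells. As with Ccl2, the Pelo-/- RNA lay below all controls, at -1.53 (SE 0.14), called lower. The Hbs1l-/- RNA change of 0.49 (SE 0.15) was called. Its groups overlapped in CPM, at 27.8 to 41.7 in Hbs1l-/- against 21.6 to 28.0 in controls, and were narrowly apart in TPM. That call was lost with a replicate block (0.48) and with limma on log2(TPM + 0.1) (0.51). It was also lost on leaving out Hbs1l-/- replicate 2 (0.34) or 3 (0.48) or control replicate 1 (0.46) or 2 (0.43). Labelled Upf2-/- RNA was at -0.04 (SE 0.14).

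Ccl5, which acts on T cells and macrophages, was at 35.5, 25.4 and 33.0 footprint CPM in Pelo-/- MEFs against 1.31, 0.707 and 1.96 in controls. In Hbs1l-/- it was at 5.99, 6.59 and 3.64 against 1.20, 0.661 and 1.78, and in labelled Upf2-/- at 14.9, 10.4 and 7.14 against 1.53, 0.705 and 1.33. The called log2 fold changes were 4.56 (SE 0.24), 2.13 (SE 0.34) and 3.12 (SE 0.31), without overlap. RNA was at 1.61, 3.52 and 4.30 TPM in controls, 18.8, 17.9 and 13.9 in Hbs1l-/-, 4.63 and 4.12 in Pelo-/-, and 6.69, 12.1 and 7.91 in labelled Upf2-/- cells. RNA was called higher in Hbs1l-/- (2.32, SE 0.27) and labelled Upf2-/- cells (1.49, SE 0.31), the latter call being lost with limma on log2(TPM + 0.1) (1.54), whereas Pelo-/- RNA overlapped the controls at 0.29 (SE 0.37).

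Il6, the inflammatory cytokine, was called higher in Pelo-/- footprints and was not called in those of the other 2 genotypes. Pelo-/- footprints were at 23.3, 15.7 and 23.2 CPM against 4.98, 6.13 and 6.31 in controls, a called log2 fold change of 1.82 (SE 0.18) without overlap. Hbs1l-/- libraries, at 3.90, 5.23 and 2.58 against 5.59, 4.85 and 6.76, and labelled Upf2-/- libraries, at 3.80, 5.42 and 3.57 against 4.81, 5.38 and 8.83, overlapped their controls. Their log2 fold changes were -0.63 (SE 0.25) and -0.57 (SE 0.26), neither called. The Hbs1l-/- value was called lower without Hbs1l-/- replicate 2 (-0.81). Il6 RNA was at 2.12, 2.47 and 2.67 TPM in controls, 0.755, 1.95 and 1.62 in Hbs1l-/-, 1.29 and 1.16 in Pelo-/-, and 3.38, 2.99 and 2.07 in labelled Upf2-/- cells. Hbs1l-/- and Pelo-/- RNA lay below all controls. The Pelo-/- change of -1.18 (SE 0.25) was called by edgeR, but not with a replicate block (-1.10) or with limma on log2(TPM + 0.1) (-0.93). Leaving out Pelo-/- replicate 1 or 2, which leaves 1 library in that group, gave -1.13 and -1.21. The Hbs1l-/- change of -0.71 (SE 0.33) was not called.

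Il1rl1 encodes the Il33 receptor and its secreted decoy form, which gene-level counts do not separate. It was at 1270.2, 898 and 851 footprint CPM in Pelo-/- MEFs against 135, 87.3 and 153.5 in controls. In Hbs1l-/- it was at 643, 501 and 622 against 121, 84.6 and 152, and in labelled Upf2-/- at 559.6, 556 and 358.5 against 121.5, 79.5 and 149. Footprints were well clear of the controls in each comparison, with called log2 fold changes of 2.99 (SE 0.21), 2.29 (SE 0.15) and 2.03 (SE 0.20). RNA was at 15.7, 30.5 and 29.7 TPM in controls, 113, 118 and 113 in Hbs1l-/-, 63.3 and 41.9 in Pelo-/-, and 26.2, 59.9 and 21.4 in labelled Upf2-/- cells. It was the member whose Pelo-/- RNA was called higher, at 0.92 (SE 0.23) by edgeR but not by limma on log2(TPM + 0.1) (1.09). Without Pelo-/- replicate 1, which leaves 1 library in that group, the value was 0.65. Hbs1l-/- RNA was called higher at 2.14 (SE 0.17). Labelled Upf2-/- RNA, 0.53 (SE 0.30), overlapped the controls and was not called, although it was called without a filter on low counts (0.57).

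Most Il1rl1 RNA was assigned to 1 transcript, Il1rl1-203, which has 1011 coding bases against 1701 in the full-length transcripts Il1rl1-201 and Il1rl1-202. That transcript held 92.9% of the gene's TPM in controls, 94.7% in Hbs1l-/-, 89.5% in Pelo-/- and 92.7% in labelled Upf2-/- cells. Its level was 23.4 TPM (SD 7.53, n = 3) in controls, 109 (SD 3.56, n = 3) in Hbs1l-/-, 47.3 (SD 14.8, n = 2) in Pelo-/- and 33.4 (SD 19.8, n = 3) in labelled Upf2-/- cells. The full-length Il1rl1-202 was at 1.10 TPM (SD 0.27) in controls and 2.60 (SD 0.41) in Hbs1l-/- cells. For Cxcl12, Cxcl12-202 with 267 coding bases held 76.7% of TPM in controls and 71.2% in Hbs1l-/- cells, Cxcl12-203 with 279 held 19.9% and 24.4%, and Cxcl12-201 with 357 held 2.58% and 3.60%. The transcripts with the longest coding sequence, from which the untranslated regions of Il1rl1 and Cxcl12 were read above, were thus minor in these cells. The Il6 stretch above is from Il6-201, which held 43.1% of Il6 TPM in controls, 25.9% in Hbs1l-/- and 16.4% in Pelo-/- cells, Il6-204 holding 56.6%, 73.4% and 80.5%.

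**Figure D3:**
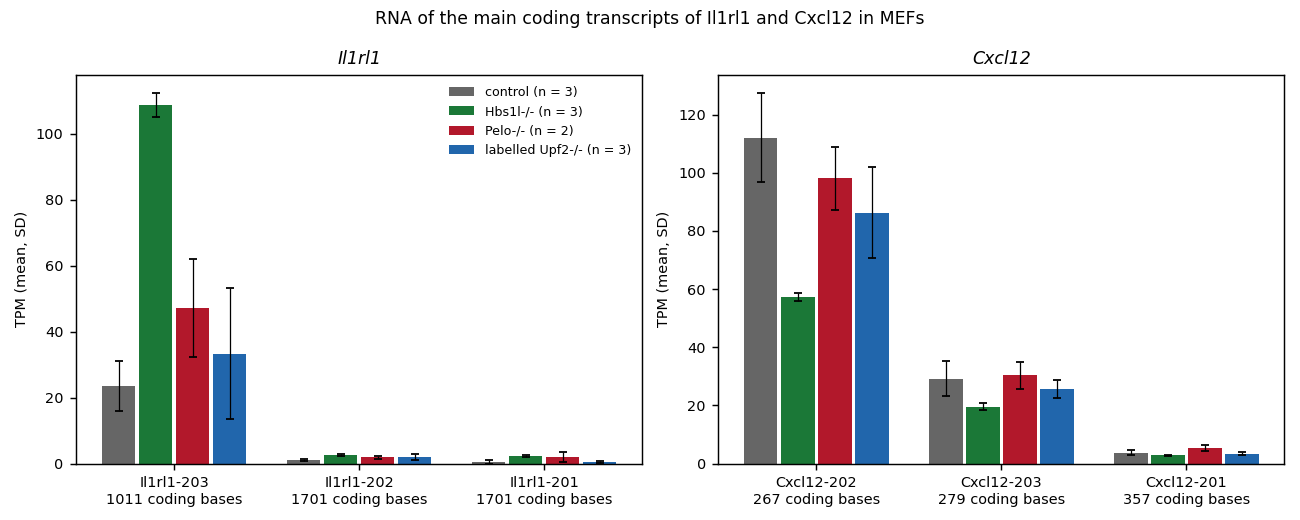
Mean RNA level (TPM, error bars SD over libraries) of the main coding transcripts of Il1rl1 and Cxcl12 in control, Hbs1l-/-, Pelo-/- and labelled Upf2-/- MEFs. The transcript Il1rl1-203 carries nearly all Il1rl1 RNA in every group and stands at 109 TPM in Hbs1l-/- against 23.4 in control cells.

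Footprint and RNA changes were then set in 1 model, whose interaction is the change in translational efficiency, that is, footprints relative to RNA. In Pelo-/- MEFs it was called higher for 8 of 10 genes and lower for 1, beside 21.9% and 18.6% of 13701 genes. Log2 changes in efficiency were 6.47 (SE 0.58) for Cxcl1, 6.96 (SE 0.78) for Cxcl5, 5.87 (SE 0.64) for Cxcl10 and 4.94 (SE 0.30) for Ccl2. They were 4.51 (SE 0.21) for Ccl7, 4.35 (SE 0.44) for Ccl5, 3.00 (SE 0.31) for Il6 and 2.08 (SE 0.35) for Il1rl1, and -0.94 (SE 0.22) for Cxcl12. Cxcl9, with controls at 0 in both assays, was not called by edgeR and was called by DESeq2, but it entered this fit only through the Pelo-/- footprint libraries, so it is not counted. The median was 4.72, or 4.51 without Cxcl9, against 0.05 over all genes. Several lists named below moved likewise, so the rise was not particular to these genes. Called higher and lower there were 20 and 2 of 24 interferon genes and 14 and 4 of 22 NF-kB genes. Other chemokines had 15 and 1 of 19, other cytokines 8 and 0 of 15, and receptors 2 and 0 of 8. AU-rich factors had 2 and 0 of 12. Some genes passed the filter through the Pelo-/- libraries, so these counts are a description. The part of macrophages in these values was not tested. In Hbs1l-/- MEFs no gene was called by edgeR, beside 0.00761% of all genes in either direction, and none had an unadjusted p under 0.05 or was called by DESeq2. The 9 values there ran from -0.30 (SE 0.35) for Cxcl10 to 0.34 (SE 0.69) for Cxcl1, the largest SE in the set, with a median of 0.07. Labelled Upf2-/- MEFs had 5 of 9 called higher, Cxcl5, Cxcl10, Ccl2, Ccl5 and Il1rl1, and Cxcl12 lower, beside 7.60% and 10.4%. That count was 1 without labelled Upf2-/- footprint replicate 1 or 2, control footprint replicate 2 or control RNA replicate 3, and it was 6 without labelled Upf2-/- footprint replicate 3 or RNA replicate 2. Cxcl10, at 2.43 (SE 0.47), was called under every one of these omissions. Footprints and RNA came from different dishes and different labelled batches. A genotype change that differs between those dishes or batches cannot be told apart from one in translation in any of these values. For Pelo-/- MEFs the RNA side rests on 2 libraries.

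**Figure D4:**
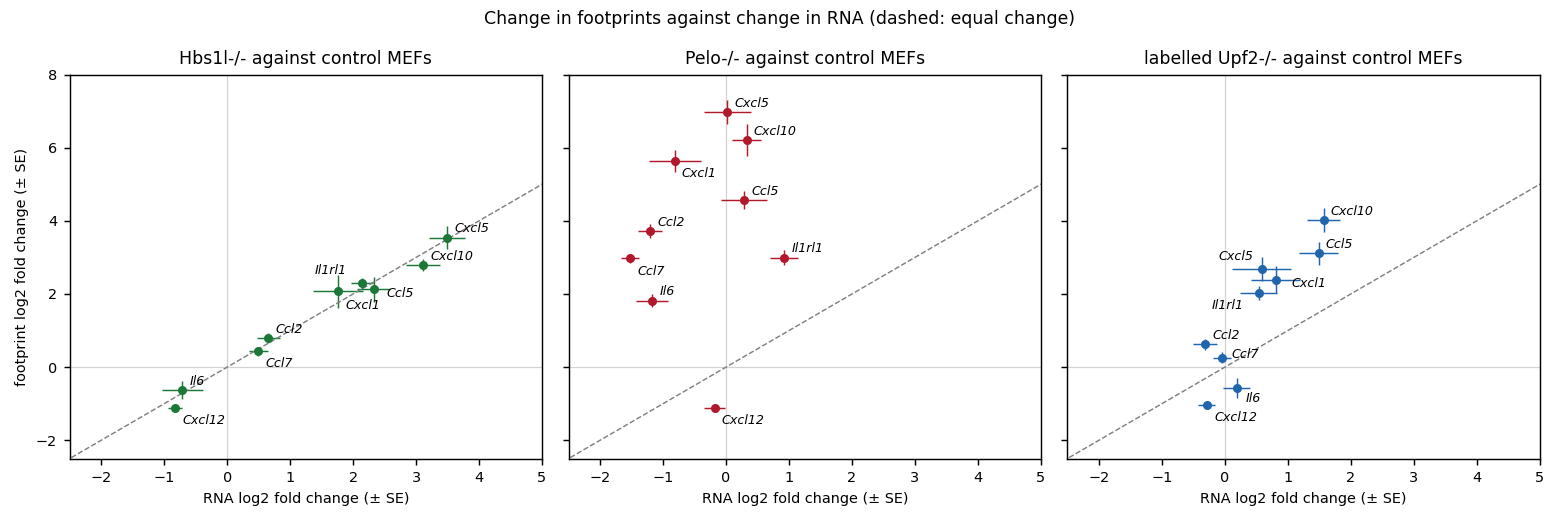
Log2 fold change of footprints (y axis) against that of RNA (x axis) for each gene in Hbs1l-/-, Pelo-/- and labelled Upf2-/- MEFs, with SE bars and a dashed line at equal change; Cxcl9 is not drawn. Hbs1l-/- values lie along the line, and in Pelo-/- MEFs 8 genes lie far above it, with RNA changes between -1.53 and 0.92.

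The difference between genotypes was also fitted, as an interaction term of the edgeR model with each genotype against its own pool's controls. The genes were chosen with results of these libraries known, so which differences were called is a description and not a test of the genes. Pelo-/- exceeded Hbs1l-/- for 7 of 10 genes, beside 3.45% of all genes called higher and 2.10% lower, by 3.57 (SE 0.74) for Cxcl1, 3.43 (SE 0.71) for Cxcl5, 3.43 (SE 0.63) for Cxcl10 and 2.93 (SE 0.26) for Ccl2. The other excesses were 2.44 (SE 0.50) for Ccl5, 2.54 (SE 0.21) for Ccl7 and 2.45 (SE 0.31) for Il6, all on the log2 scale. Those of Cxcl5 and Ccl5 were not called without Hbs1l-pool control replicate 3 (3.23 and 2.07), nor was that of Cxcl5 without control replicate 1 (3.21). Cxcl12 differed by -0.0012 (SE 0.19) and Il1rl1 by 0.71 (SE 0.29), neither called, and Cxcl9 was not called by edgeR but was by DESeq2, both here and against labelled Upf2-/- cells; it entered these fits only through the Pelo-/- libraries and is not counted. Against labelled Upf2-/- cells Pelo-/- was higher for 5 of 10, beside 6.82% and 6.18%, namely Cxcl1 (3.26, SE 0.62), Cxcl5 (4.31, SE 0.65), Ccl2 (3.10, SE 0.28), Ccl7 (2.72, SE 0.24) and Il6 (2.39, SE 0.34). For Cxcl10 (2.19, SE 0.72), Ccl5 (1.45, SE 0.49), Il1rl1 (0.97, SE 0.33) and Cxcl12 (-0.09, SE 0.19) the difference was not called. DESeq2 called Cxcl10 and Ccl5 as well, as did edgeR with a replicate block, which made 7 genes. Leaving out 1 library made it called for Cxcl10 (2.49 without Pelo-/- replicate 2, 2.48 without labelled Upf2-/- replicate 1), for Ccl5 (1.69 to 1.83, without labelled Upf2-/- replicate 1, its control replicate 2 or Pelo-pool control replicate 3) and for Il1rl1 (1.09 without Pelo-/- replicate 3, 1.17 without Upf2-pool control replicate 2). Labelled Upf2-/- against Hbs1l-/- gave no call by edgeR or DESeq2 for the 9 genes tested, beside 2.88% and 2.05%, with 1 unadjusted p under 0.05. The largest of those differences were 1.23 (SE 0.47) for Cxcl10, called without labelled Upf2-/- replicate 3 (1.54), and 0.99 (SE 0.53) for Ccl5.

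The wider pathway was read through lists of named genes. Over all genes tested, the shares called higher and lower were 22.9% and 21.2% in Pelo-/-, 17.4% and 16.7% in Hbs1l-/- and 22.3% and 21.1% in labelled Upf2-/- footprints, and 15.5% and 16.6%, 12.7% and 10.4%, and 13.2% and 6.76% in RNA in that order. Of the receptors of these ligands and their partners (15 genes), 4 of 8 tested were called higher and 1 lower in Pelo-/- footprints, with the scavenging receptor Ackr4 at -2.21 (SE 0.34) and Il1rap, the co-receptor of Il1rl1, at 0.87 (SE 0.13). Hbs1l-/- and labelled Upf2-/- footprints each had 2 of 7 receptors higher and 1 lower, close to the shares over all genes. Of 32 other chemokines, 13 of the 18 that passed the filter on low counts were higher and 1 lower in Pelo-/- footprints. Some passed it through the Pelo-/- libraries alone, since 11 passed in each of the other MEF footprint comparisons, so that this count is no more than a description. Ccl3 was at 6.04 (SE 0.41) and Cxcl2 at 5.29 (SE 0.38), and Cxcl3 was at 3.89 to 5.11 CPM where controls had no count. Ccl3 is a macrophage product, so the macrophage sums given above stand beside this list as well. In Hbs1l-/- footprints 3 of 11 were higher and 1 lower, led by Ccl4 at 2.35 (SE 0.43), and in labelled Upf2-/- 2 were higher and 1 lower. In RNA 10 of 15 were higher and 1 lower in Hbs1l-/-, with Ccl17 at -1.98 (SE 0.19) and Ppbp at 1.32 (SE 0.23), against 1 higher and 2 lower of 11 in Pelo-/- and 2 lower of 10 in labelled Upf2-/- cells. The controls are the same in these 3, so some genes passed the filter through the Hbs1l-/- libraries, and the counts are not comparable between genotypes. Among 17 other cytokines, 10 of 12 tested were higher in Pelo-/- footprints, with Il1b at 5.90 (SE 0.38), Csf3 at 5.50 (SE 0.69) and Tnf at 5.35 (SE 0.38). These 3 were too low to be tested in Hbs1l-/- or labelled Upf2-/- footprints and passed the filter through the Pelo-/- libraries, so that count is a description as well. Of 7 tested in Hbs1l-/- footprints 1 was called, Lif at -0.43 (SE 0.14), and in labelled Upf2-/- footprints 2 were higher and 3 lower, led by Tslp, with Il33, the ligand of Il1rl1, at 1.39 (SE 0.38) and Il11 at -0.84 (SE 0.28). In Pelo-/- RNA 4 of 10 cytokines were higher, Il11 at 1.49 (SE 0.15), Csf1 at 0.97 (SE 0.11) and Lif at 0.86 (SE 0.11) being the leading ones.

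Of 22 genes of the NF-kB pathway, 15 were higher and 1 lower in Pelo-/- footprints, beside 22.9% and 21.2% of all genes, with a median of 0.91. Bcl3, an NF-kB cofactor, was at 3.39 (SE 0.22), and the inhibitors Nfkbia and Nfkbie were at 2.20 (SE 0.09) and 2.02 (SE 0.17). In Hbs1l-/- footprints 9 were higher and 1 lower, with Bcl3 at 1.26 (SE 0.29), the interleukin-1 receptor Il1r1 at 1.00 (SE 0.18) and Tnfaip3, a negative regulator of the pathway, at -0.92 (SE 0.13). In labelled Upf2-/- footprints 6 were higher and 3 lower, near the 22.3% and 21.1% of all genes, with Tnfaip3 at -1.29 (SE 0.14), Il1r1 at 0.96 (SE 0.23) and the adhesion molecule Icam1 at 0.92 (SE 0.09). In RNA 10 were higher and 1 lower in Hbs1l-/-, 4 and 1 in labelled Upf2-/-, and 6 and 1 in Pelo-/- cells, the last with Tnfaip3 at 1.07 (SE 0.17), Traf6 at 0.57 (SE 0.16) and Chuk at -0.54 (SE 0.15). Of 26 genes of the interferon pathway, 21 of 24 tested were higher and 1 lower in Pelo-/- footprints, 18 of 23 were higher in Hbs1l-/- and 18 of 24 in labelled Upf2-/-, with medians of 3.56, 1.95 and 2.64. At least Mx1, at 0 to 0.0889 CPM in the Pelo-pool controls and 1.26 to 3.94 in Pelo-/- MEFs, passed the filter through the Pelo-/- libraries, so these counts and medians are a description. Usp18, an interferon-induced regulator, was at 6.78 (SE 0.25), 4.44 (SE 0.27) and 4.93 (SE 0.50) in that order. In RNA 18 of 23 were higher in Hbs1l-/- cells and 12 of 24 in labelled Upf2-/- cells, but 1 of 22 was higher and 2 lower in Pelo-/- cells, Ifih1 at -1.06 (SE 0.28) and Gbp2 at -0.81 (SE 0.20). Of 12 factors that bind AU-rich elements or degrade such mRNAs, 5 were higher and 2 lower in Pelo-/- footprints, with the endonuclease Zc3h12a at 2.09 (SE 0.12) and Zfp36l1 at 1.20 (SE 0.08). Hbs1l-/- and labelled Upf2-/- footprints each had 4 higher and 2 lower. In Pelo-/- RNA 4 were higher, among them Zfp36l2 at 0.92 (SE 0.17), Zfp36l1 at 0.53 (SE 0.15) and Zfp36 at 0.44 (SE 0.08), and 1 was lower. Hbs1l-/- RNA had 5 higher and none lower, and labelled Upf2-/- RNA had none called.

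For each gene the most alike footprint patterns were sought by Pearson's r of log2(CPM + 1) over 12 points, the 9 libraries of the 3 genotypes and the 3 control numbers each averaged over the pools, among 9782 genes with a mean of at least 5 CPM. The points share pools and depth, so the r values only describe them. Cxcl1 was most like H2-Q4 (r = 0.99), Ptx3 and H2-K1, and Cxcl5 most like H2-D1 (r = 0.99), H2-K1 and Lcp1, where the H2 genes encode class I histocompatibility antigens. Cxcl9 was most like Ube2l6 (r = 0.99), Ch25h and C3, and Cxcl10 most like the interferon-induced genes Gbp2 (r = 0.99), Cmpk2 and Irf1. Ccl2 and Ccl7 shared Glrx and Nfkb1 among their nearest, with Unc93b1 and Stat5a as the other two (r = 0.98 to 0.99). Ccl5 was nearest to Inhbb (r = 0.99), Gbp2 and Cmpk2, and Il6 to Ifi47 (r = 0.96) and Ccl20. Il1rl1 was nearest to E2f8 (r = 0.98), Slc4a4 and Zc3hav1, and Cxcl12 to Selenom (r = 0.97), Sft2d2 and Chmp5. Between members, r was 0.97 for Cxcl1 with Cxcl5 and 0.80 for Cxcl1 with Il1rl1, and -0.65 for Cxcl1 with Cxcl12.

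Outside MEFs the tested question was whether loss of Hbs1l changes these genes in embryos or cerebella. In embryos Cxcl12 alone was deep enough to be tested. It had 200, 106 and 94 counts in Hbs1l-/- and 80, 135 and 96 in wild-type libraries, or 24.4 to 33.2 CPM and 30.4 to 33.2 CPM, and the groups overlapped. Its log2 fold change was -0.17 (SE 0.20, edgeR adjusted p = 0.666), and no member was called by edgeR or DESeq2 or had an unadjusted p under 0.05, beside 0.920% of all genes called higher and 0.955% lower. In these libraries the embryonic blood markers summed to 3082 to 7897 CPM in Hbs1l-/- against 12504 to 16346 in wild type. Fibroblast markers summed to 2168 to 2612 against 2636 to 3434, and endothelial markers to 513 to 713 against 491 to 508. The part of these cells was not tested. The other 9 genes had 0 to 6 counts in every embryo library, so a fall or a small rise in them was not detectable at this depth, where a count of 0 allows up to 0.411 CPM in the deepest library and 1.14 CPM in the shallowest (3 counts, counting error only). Per kb Cxcl12 was at 84.5 CPM in wild-type embryos, 165 in control cerebella and 571 to 579 in control MEFs.

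In cerebella Cxcl12 had 1379, 834 and 1802 counts in Atoh-Cre;Hbs1l cKO and 734, 1307 and 1616 in control libraries, or 66.0 to 79.8 and 57.5 to 71.8 CPM, with overlap. Its log2 fold change was 0.14 (SE 0.13, edgeR adjusted p = 0.679). Cxcl10 had 32, 9 and 26 counts against 7, 12 and 21, a log2 fold change of 0.70 (SE 0.39, edgeR adjusted p = 0.481), with 2 cKO libraries above all controls and 1 among them. Macrophage and monocyte markers summed to 264 to 294 CPM in cKO against 205 to 245 in control cerebella, with none of the 11 tested called. Their part in the Cxcl10 value was not tested. Ccl2 had 14, 7 and 7 counts against 9, 12 and 9, with a log2 fold change of -0.12 (SE 0.48, adjusted p = 0.937 by edgeR). Ccl7 had 11, 1 and 5 counts against 6, 11 and 6 (-0.51, SE 0.63, adjusted p = 0.768 by edgeR), a value that ran from -1.29 without cKO replicate 1 to -0.23 without cKO replicate 2. Neither edgeR nor DESeq2 called any of the 4 genes, none had an unadjusted p under 0.05, and the background was 0.0554% of all genes called higher and 0.00693% lower. The 6 genes not tested had 7 counts or fewer in every cerebellum library.

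**Figure D5:**
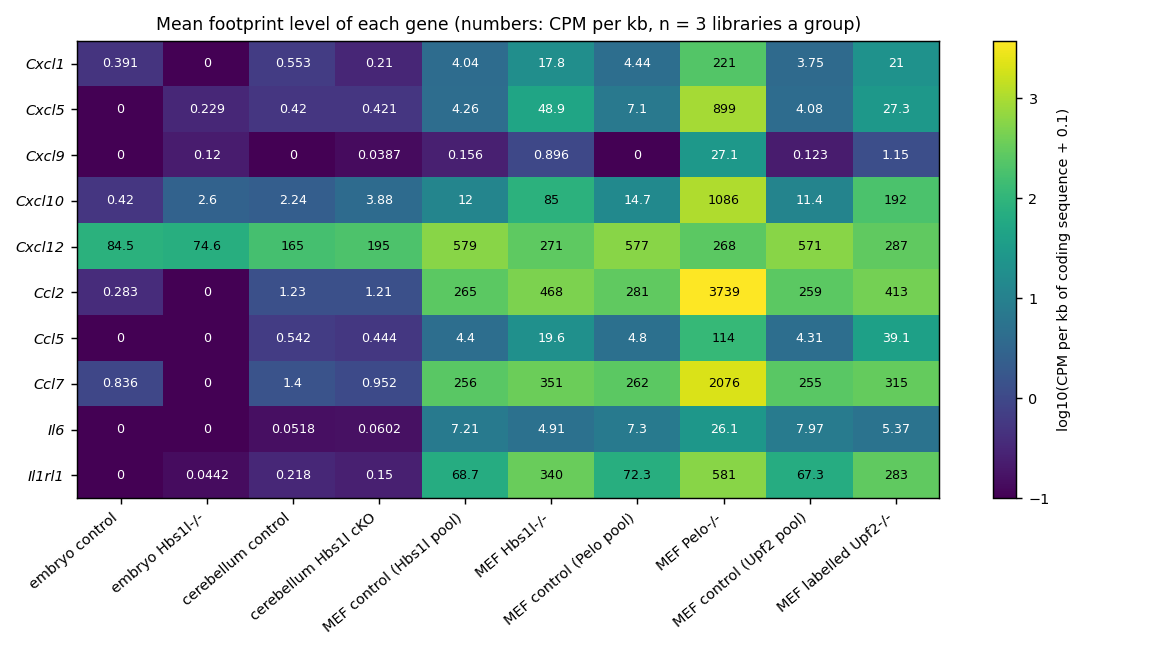
Mean footprint level of each gene (rows) in each group (columns) as CPM per kb of coding sequence, printed in each cell and coloured on a log10 scale, with 3 libraries a group. Cxcl12 stands at 74.6 to 195 in embryos and cerebella, above all other rows there, and Ccl2 in Pelo-/- MEFs is the highest cell at 3739.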

How the data were processed

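Ribosome footprints and poly(dT)-selected, strand-specific RNA were analysed per gene. The authors clipped adapters, removed ribosomal reads with Bowtie2 (version 2.2.3), aligned footprints to mm10 with HISAT2 (version 2.1.0) and deposited raw read counts over the coding sequences of Gencode M24 from featureCounts, without normalization. For RNA the authors ran kallisto (version 0.42.4) and deposited estimated counts per transcript and TPM values, which are scaled for length and to each library's total. Transcripts of a gene were added up for both, with whole numbers entering the tests. Footprint levels are CPM, counts scaled to the library total.

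Mutant and control groups were compared with edgeR (version 4.0.16, R version 4.3.3) by its quasi-likelihood test, with TMM factors, filterByExpr and Benjamini-Hochberg adjustment over all genes tested, called at an adjusted p of at most 0.05. Like the study, footprint and efficiency tests omitted histone genes. Efficiency and differences between genotypes were interaction terms of that model. The SE is the log2 fold change divided by the square root of F. Fits were tested on simulated data. These tests had no replicate block. The members and gene lists were chosen with earlier results of these data known. Of each list, up to 3 genes are named, those with the largest changes among genes called, not overlapping between groups and at a mean of at least 1 CPM; Ccl17, Tnfaip3, Il33 and Lif fall under that rule. Some genes that these rules would name are not reported here. Alternatives were DESeq2 (version 1.42.0), other scaling factors, no filter, limma (version 3.58.1) on log2(TPM + 0.1), a replicate block, summed controls and leaving out each library. Promoters and gene models are from RefSeq and Gencode M21 on GRCm38. Intervals and floors cover counting error only.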

Additional observations from a re-analysis of the deposited data

Results flagged for a closer look

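Differences between genotypes in their footprint changes stood out by edgeR's interaction term, each genotype against its own pool's controls, for the genes that follow. The genes were chosen with results of these libraries known, so the values are a description. Pelo-/- exceeded Hbs1l-/- MEFs on the log2 scale by 3.57 for Cxcl1, 3.43 for Cxcl5, 3.43 for Cxcl10, 2.93 for Ccl2, 2.44 for Ccl5, 2.54 for Ccl7 and 2.45 for Il6. Pelo-/- exceeded labelled Upf2-/- MEFs by 3.26 for Cxcl1, 4.31 for Cxcl5, 3.10 for Ccl2, 2.72 for Ccl7 and 2.39 for Il6. The genotypes were sequenced in separate pools whose same-numbered controls appear to be the same cultures, so the interaction treats related controls as separate ones. Summed macrophage and monocyte markers were also highest in Pelo-/- footprints (505 to 721 CPM, against 251 to 339 in Hbs1l-/- and 185 to 231 in labelled Upf2-/- libraries), and their part in these differences was not tested.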

How the results depend on the processing

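Of 1480 recomputed values of single members, 1399 kept their side of the threshold, 54 lost a call, 23 gained one, 2 moved and 2 reversed. Of the 1399, 37 values of 8 genes in MEFs, called under neither setting and at most 0.29 in size, changed sign by less than their SE, and the others kept their direction. The reversed ones were Ccl2 in cerebella, which went from -0.12 to 0.20 without Hbs1l cKO replicate 3 and to 0.07 without control replicate 1, and reached -0.35 without cKO replicate 1. Those that moved were Pelo-/- RNA of Cxcl12 (0.01 without Pelo-/- replicate 1) and labelled Upf2-/- RNA of Cxcl5 (-0.23 without replicate 2). The cause was not tested for any of these.

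Counts of genes called higher and lower in embryos were 105 and 109, against 222 and 193 with DESeq2, 351 and 352 without a filter and 240 and 324 with a replicate block. In cerebella they were 8 and 1, against 281 and 195 with DESeq2, 14 and 2 without a filter and 0 and 0 with a replicate block. For efficiency in Hbs1l-/- MEFs they were 1 and 1, against 150 and 190 with DESeq2, 11 and 11 without a filter and 19 and 4 with a replicate block. With limma on log2(TPM + 0.1), genes called higher and lower in RNA were 579 and 491 in Hbs1l-/-, 303 and 442 in Pelo-/- and 1038 and 152 in labelled Upf2-/- cells, against 1944 and 1598, 2283 and 2444, and 2113 and 1081. Members called by limma numbered 4 higher in Hbs1l-/-, 0 higher and 1 lower in Pelo-/- and 1 higher in labelled Upf2-/- RNA (lost were Cxcl1, Ccl2 and Ccl7, then Ccl2, Il6 and Il1rl1, then Ccl5), the last being 4 without a filter. Il1rl1 (0.57) was among those gained in labelled Upf2-/- RNA without a filter. Members lower in Hbs1l-/- footprints were 2, with Il6 added, without a filter or with controls summed over pools. DESeq2 called 8 members higher in Pelo-/- than in labelled Upf2-/- footprints, with Cxcl9, Cxcl10 and Ccl5 added, and it added Cxcl9 also for Pelo-/- against Hbs1l-/- footprints and for Pelo-/- efficiency. Cxcl9 entered these fits only through the Pelo-/- libraries, in which it is high, so its calls are no independent sign of a difference.

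Replicate numbers did not pair the libraries: no comparison had a correlation above 0.1 in all same-numbered pairs (range -0.28 to 0.38). With a replicate block, 1307 genes were called higher in Pelo-/- RNA and 148 lower in labelled Upf2-/- than in Hbs1l-/- footprints. Among members the replicate block lost Ccl7 in Hbs1l-/- RNA (0.48) and Il6 in Pelo-/- RNA (-1.10), gained Cxcl10 (2.25) and Ccl5 (1.44) for Pelo-/- against labelled Upf2-/-, and changed no other call.

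Leaving out each library in turn gave 15 to 1098 genes higher and 13 to 1211 lower in embryos, and 0 to 245 and 0 to 315 in cerebella. In Hbs1l-/- footprints 1 to 2 members were lower. Hbs1l-/- RNA had 4 to 7 members higher, with 966 to 1372 genes higher and 851 to 1291 lower. Pelo-/- RNA had 0 to 1 members higher, with 532 to 2327 genes higher and 974 to 2475 lower. Labelled Upf2-/- RNA had 1370 to 2047 genes higher and 395 to 1154 lower. Efficiency gave 0 to 29 genes higher and 0 to 10 lower in Hbs1l-/-, and 1 to 6 members higher and 0 to 1 lower, with 516 to 1183 genes higher and 859 to 1595 lower, in labelled Upf2-/- MEFs. For Pelo-/- against Hbs1l-/- 273 to 464 genes were higher and 104 to 271 lower, for Pelo-/- against labelled Upf2-/- 494 to 797 were lower, and for labelled Upf2-/- against Hbs1l-/- 0 to 1 members and 221 to 351 genes were higher and 130 to 232 lower. In footprints of Pelo-/- MEFs the counts of 9 members higher and 1 lower held in each. Depth limits Cxcl9, with at most 2 counts in control MEFs, and 9 of the 10 genes in embryos.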
